A study of Mus musculus with 20 samples.

Results

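In 590 of 45101 probe-sets, the mean of the IMO-3100 mice and the mean of the IMO-8400 mice both lay outside the interval between the naïve and saline means. They were chosen by a single rule on the log2 values: each antagonist mean had to be at least 0.5 above the higher, or at least 0.5 below the lower, of the naïve and saline means. Of the 590 members, 268 lay above the interval, which was 0.594% of all probe-sets, and 322 lay below it, which was 0.714%. Since the measured group means chose them, the antagonist and control levels of the members are given below as a description with no test. The distance quoted for a member is the smaller of its 2 antagonist gaps to the nearer control mean, on the log2 scale, where 1 is an FCH of 2.

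The values were log2 intensities from Affymetrix mouse4302 arrays, 1 array per mouse. All mice were female C57BL/6, purchased at 6 weeks of age and housed for 1 week. The saline, IMO-3100 and IMO-8400 groups received IL-23 intradermally into the back, 3 µg per day from day 1 to day 4, which gives the psoriasis-like lesion of this model. On days 4, 5 and 6 they also received, subcutaneously and away from the lesion, PBS (the group labelled saline) or 15 mg/kg of one antagonist, an oligonucleotide in each case. IMO-3100 blocks TLR7 and TLR9, and IMO-8400 blocks TLR7, TLR8 and TLR9. Skin from the injection site was taken on day 7, and the naïve group was normal skin with no induced lesion. Each group held 5 mice, so a value in a group is given as its mean ± SD with n = 5 or as its 5 mice. The sources used here give neither the hour of collection nor whether groups were killed in parallel, and no group received an antagonist without IL-23. The group comparison therefore does not separate an effect of the compounds on skin from one that needs the lesion.

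TLR7, TLR8 and TLR9 are endosomal receptors for nucleic acids on plasmacytoid dendritic cells, B cells and myeloid cells, and IL-23 sustains the IL-17-producing T cells of the skin. A level that an antagonist returns from the saline level to the naïve level stays inside the interval and is not described here. Il17a was such a gene: it averaged 5.71 ± 0.70 in saline skin and stood at or next to the lowest value of the arrays in the other 3 groups. Among the receptors, Tlr7, on its brightest probe-set, averaged 8.63 ± 1.95 in naïve, 10.56 ± 0.46 in saline, 11.20 ± 0.21 in IMO-3100 and 10.50 ± 0.55 in IMO-8400 skin and was no member. Tlr8 was no member either, at 2.94 ± 0.97, 4.22 ± 0.51, 4.47 ± 0.45 and 3.10 ± 0.85 in the same order, and the Tlr9 probe-set stayed at the lowest value of the arrays in all but the saline group, where it averaged 2.06 ± 0.10.

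Over the members, 1 library stood apart. Naïve mouse 1 had a mean of 6.06 over the 268 members above, where the other 4 naïve mice lay between 6.85 and 7.29. Over the 322 members below, its mean was 8.33, against 6.96 to 7.44. The naïve mean enters the rule, so a mouse far from its group can itself make probe-sets members. The place of naïve mouse 1 over the members is therefore partly set by the selection. The same mouse had the highest mean of the hair follicle list, 12.7, but naïve hair levels spread widely, with 11.1, 8.71, 4.48 and 3.52 in the other mice. All saline and IMO-3100 mice lay between 2.98 and 3.25 for that list, and among the IMO-8400 mice 1 stood out with 5.68. The 4 defining keratinocyte markers averaged between 13.9 and 14.4 in all 20 mice, so the labelled tissue showed its main cell type. Without naïve mouse 1 the rule chose 188 probe-sets above and 205 below, and 177 of the 268 and 170 of the 322 members kept their place. Leaving out any other single mouse kept at least 87.3% of the members above and 84.8% of those below, and 228 of the 590 stayed members whichever of the 20 mice was left out. Its part in each result was not tested beyond these counts, and the value without it is given beside those results that turned on it.

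**Figure D1:**
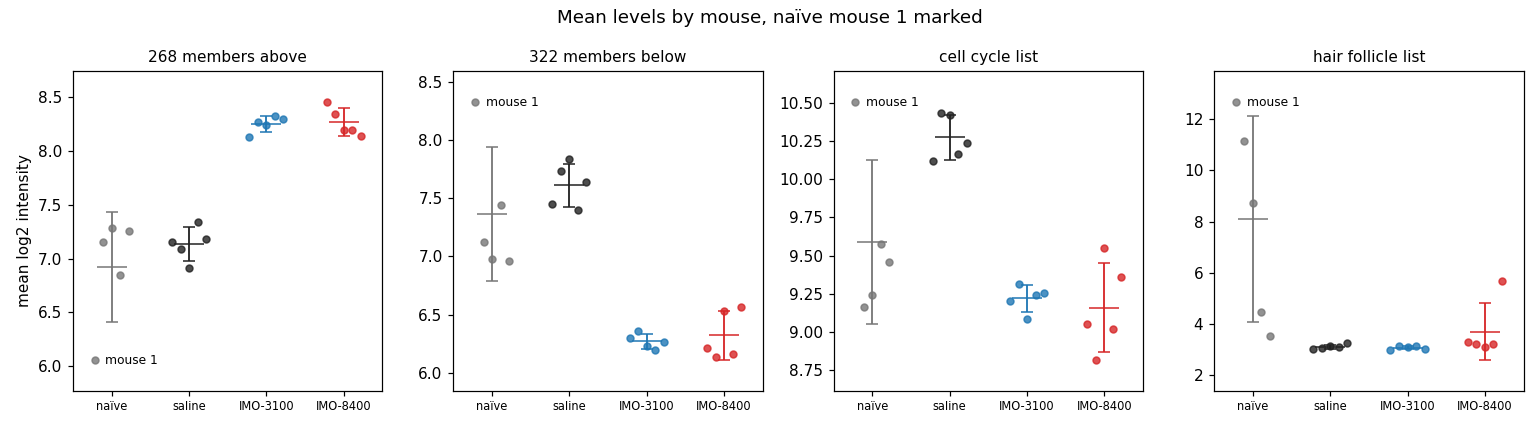
Mean log2 intensity by mouse over the 268 members above, the 322 members below, the 36 measured cell cycle genes and the 24 measured hair follicle genes. Points are mice (5 per group) and bars are the group mean ± SD. Naïve mouse 1 is the lowest mouse in the first panel and the highest in the other panels.

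The saline and naïve means lay within 0.5 of each other for 168 of the 268 members above and for 180 of the 322 below. The same share over all probe-sets was not computed, and the rule used both means, so these counts do not set the members apart. By the study's cut-offs, FCH over 2 and FDR below 0.05 in limma, IL-23 raised 26 of the members above and lowered 10, and it raised 31 of the members below and lowered 9. The background for this comparison was 7.58% raised and 8.92% lowered, and because the rule used both means nothing is read from the members' shares. The median distance was 0.66 in both directions, with a maximum of 6.67 above and 2.21 below. A distance of at least 1 was reached by 44 members above and 40 below. All 10 antagonist mice lay above all 10 control mice for 48 of the 268 members, and below them for 30 of the 322; such gaps were seen in 0.155% and 0.12% of all probe-sets. In all 4 limma comparisons of an antagonist with a control, 26 members above and 13 below passed both cut-offs, as did 0.084% and 0.042% of all tested probe-sets. By FDR alone 82 above and 68 below passed, beside 0.407% and 0.375% of all. These limma counts repeat the contrasts the rule used and carry no further evidence. The cut at 0.5 fell in the middle of a continuum. Just inside it above were Ahr at 0.5003 and Aif1l at 0.5006, and just outside were Slc45a4 at 0.4997 and Stard9 at 0.4996. Below, Snrpa1 at 0.5027 and a second Mrps25 probe-set at 0.5029 were just inside, and Dph2 at 0.49996 and Mtap at 0.4996 just outside.

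**Figure D2:**
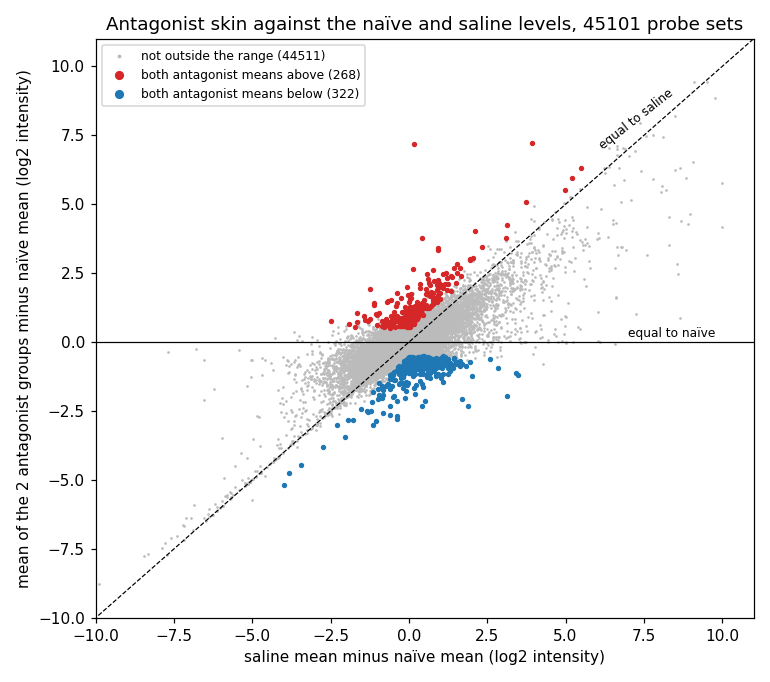
Mean of the 2 antagonist groups minus the naïve mean (vertical axis) against the saline mean minus the naïve mean (horizontal axis), in log2 intensity, for 45101 probe-sets. The solid line marks equality with naïve and the dashed line equality with saline. Points between the lines lie inside the interval; the 268 red members lie above both lines and the 322 blue members below both.

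The members above named 174 genes and those below 237, and no gene had members on both sides. Of these genes, 25 above and 49 below had 2 or more member probe-sets. Other probe-sets of the member genes that were no members were counted separately, where a group mean was at least 4. Both antagonist means lay outside the interval on the same side, by any distance short of the limit, in 65 of 122 cases above and 107 of 157 below. These counts leave out the member probe-sets and were not set against all probe-sets, so they give no rate of agreement between probe-sets.

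The member farthest from the controls was Scgb1b27, which encodes a subunit of the mouse androgen-binding proteins, secretoglobins best known from salivary and lacrimal glands. Its probe-set read 2.03, 2.03, 2.44, 2.09 and 2.03 in naïve, 2.44, 2.03, 2.44, 2.25 and 2.22 in saline, 9.22, 10.14, 8.50, 8.28 and 8.57 in IMO-3100 and 10.84, 9.73, 9.20, 9.70 and 9.07 in IMO-8400 skin. It was close to the lowest value of the arrays in every control mouse and above 8 in every antagonist mouse, a distance of 6.67. Scgb2b27, its neighbour on chromosome 7 and the partner subunit, read 2.02, 2.02, 2.02, 2.02 and 2.02 in naïve, 2.29, 2.02, 2.02, 2.04 and 2.12 in saline, 2.86, 4.38, 2.29, 4.80 and 4.03 in IMO-3100 and 5.59, 3.24, 3.34, 3.12 and 3.91 in IMO-8400 skin. The IMO-3100 mouse at 2.29 matched the highest saline mouse, so the Scgb2b27 groups touched, and the other 9 antagonist mice lay above all controls. Scgb2b27 was named after its values were seen. The genome holds many near-identical copies of these genes, and the probe-sets may read more than 1 of them.

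Next in distance came a probe-set with no gene symbol, at 3.27, and then Mybpc3 among the named genes. Mybpc3, the cardiac myosin-binding protein C, read 2.38, 2.57, 2.54, 2.44 and 2.38 in naïve, 2.82, 3.08, 2.86, 2.78 and 2.78 in saline, 8.12, 8.97, 5.98, 5.27 and 6.76 in IMO-3100 and 4.65, 5.40, 6.41, 5.64 and 5.27 in IMO-8400 skin. All controls were below 3.1 and all antagonist mice above 4.6, and the IMO-3100 mice were spread over nearly 4 log2 units. Acsm1, a mitochondrial enzyme that activates medium-chain fatty acids, read 3.26, 3.27, 4.68, 4.33 and 3.36 in naïve, 3.26, 4.00, 3.80, 4.53 and 4.00 in saline, 5.22, 6.80, 6.27, 7.08 and 6.46 in IMO-3100 and 7.32, 6.50, 6.09, 6.84 and 5.74 in IMO-8400 skin. Again no antagonist mouse overlapped a control mouse. Akr1d1, the steroid 5-beta-reductase, was chosen after its values were seen because it lay at 2.11, with means of 2.02 ± 0.00 in naïve, 2.96 ± 0.91 in saline, 5.63 ± 1.82 in IMO-3100 and 5.07 ± 0.97 in IMO-8400 skin. Rgn, the calcium-binding protein regucalcin, read 2.09, 3.17, 3.56, 3.53 and 2.73 in naïve, 5.56, 4.66, 4.76, 5.78 and 4.83 in saline, 5.81, 7.84, 6.30, 8.40 and 7.65 in IMO-3100 and 7.60, 6.60, 6.99, 6.12 and 7.29 in IMO-8400 skin. Rgn was raised by IL-23 and stood higher again in every antagonist mouse than in any saline mouse. The defining skeletal muscle markers had no member among 4, and the muscle list none among 25.

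Further genes with no overlap between the 10 antagonist and 10 control mice were described by their means. Cacna1e, the pore subunit of the R-type calcium channel, averaged 6.33 ± 1.03 in naïve, 6.06 ± 0.41 in saline, 7.84 ± 0.25 in IMO-3100 and 8.05 ± 0.25 in IMO-8400 skin. Asah2, the neutral ceramidase, averaged 4.96 ± 1.21 in naïve, 5.63 ± 0.37 in saline, 6.95 ± 0.39 in IMO-3100 and 7.13 ± 0.42 in IMO-8400 skin. Sphk2, which phosphorylates the sphingosine that ceramidases release, averaged 8.00 ± 0.88 in naïve, 8.98 ± 0.42 in saline, 10.19 ± 0.21 in IMO-3100 and 10.08 ± 0.17 in IMO-8400 skin. Sphk2 overlaps Dbp at one end in the RefSeq annotation of the mouse genome, and Dbp, described with the clock genes, was also a member above. Smim6 (distance 1.43), Kctd4 (0.98) and the long non-coding RNA genes Gm34703 (2.37) and Gm15708 (1.01) complete the 15 leading named genes above. Without naïve mouse 1 the distance of Cacna1e was 1.07, and the distances of the others in these 3 paragraphs stayed within 0.1 of the values given.

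**Figure D3:**
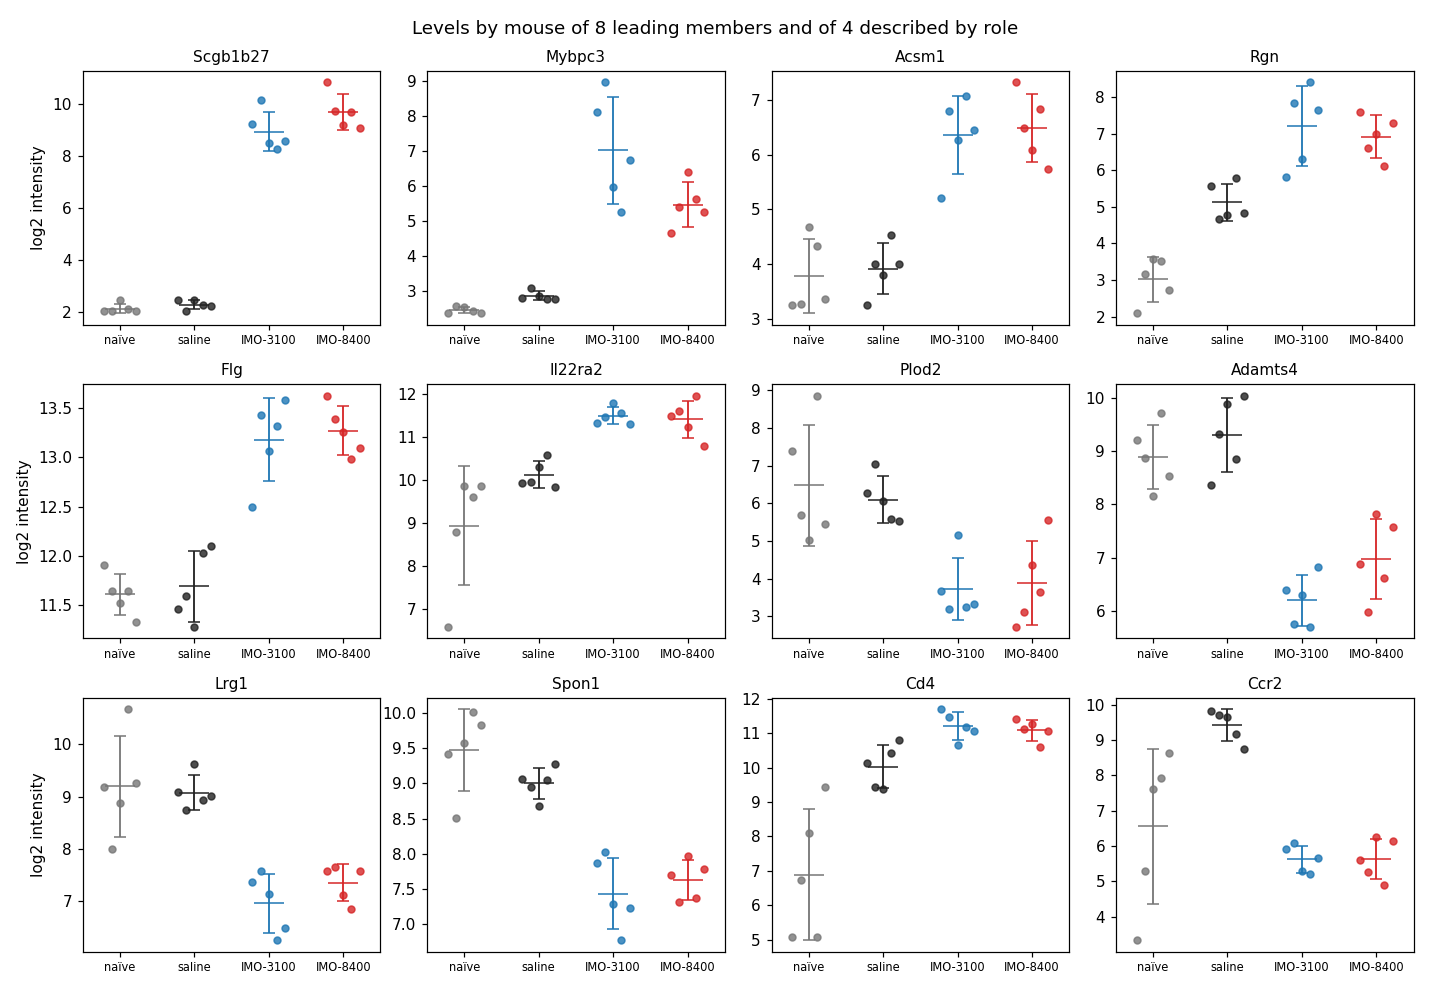
Log2 intensity by mouse for Scgb1b27, Mybpc3, Acsm1, Rgn, Flg, Il22ra2 and Cd4 above the interval and Plod2, Adamts4, Lrg1, Spon1 and Ccr2 below it. Points are mice (5 per group) and bars are the group mean ± SD; each panel has its own axis, which does not start at 0. For Scgb1b27 all controls sit near 2 and all antagonist mice above 8.

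A second group above the interval were genes of the circadian clock. The clock is a transcriptional loop in nearly every cell: CLOCK and ARNTL drive genes through E-boxes (CACGTG), the PER and CRY proteins they induce block them, and NR1D1 and NR1D2 repress Arntl. The output factors DBP, TEF and HLF activate genes through D-boxes (TTATGTAA is the form searched here), and NFIL3 represses through the same sites. Of the 17 measured genes of the clock list, 7 lay above (41.2%) and 1 below (5.88%), beside 0.956% and 1.30% of all 18194 genes. Of the 18194, 13909 had a probe-set with an SD above 0.1, as did all 17 clock genes and every member, so the shares over all genes are low for such a list. The 7 were Per3, Dbp, Tef, Hlf, Nr1d1, Nr1d2 and Ciart, and the 1 below was Nfil3. The list, like all lists here, was written with earlier results of these data known, and its counts are a description. Promoter windows of 300 bases around the start site, from RefSeq on build GRCm38.p6, are shown for the 3 of the 7 genes above whose windows hold either motif, with the motif in capitals. They are written 5′ to 3′ along the gene; Per3 (chr4:151044616-151044915, minus strand) holds 2 D-boxes, Ciart (chr3:95882179-95882478, minus strand) 3 E-boxes and the upstream start of Tef (chr15:81802423-81802722, plus strand) 1 E-box.

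Per3: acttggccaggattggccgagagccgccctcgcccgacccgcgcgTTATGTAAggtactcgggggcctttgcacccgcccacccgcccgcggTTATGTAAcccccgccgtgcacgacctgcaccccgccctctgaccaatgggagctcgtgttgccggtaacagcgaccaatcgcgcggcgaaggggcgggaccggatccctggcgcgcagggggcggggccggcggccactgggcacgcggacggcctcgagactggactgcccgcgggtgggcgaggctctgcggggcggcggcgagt

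Ciart: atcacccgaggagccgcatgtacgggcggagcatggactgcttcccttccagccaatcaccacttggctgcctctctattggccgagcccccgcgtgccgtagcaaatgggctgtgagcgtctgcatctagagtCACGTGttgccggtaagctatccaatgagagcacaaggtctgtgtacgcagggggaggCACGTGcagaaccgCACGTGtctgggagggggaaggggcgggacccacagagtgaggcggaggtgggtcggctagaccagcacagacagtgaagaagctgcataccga

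Tef: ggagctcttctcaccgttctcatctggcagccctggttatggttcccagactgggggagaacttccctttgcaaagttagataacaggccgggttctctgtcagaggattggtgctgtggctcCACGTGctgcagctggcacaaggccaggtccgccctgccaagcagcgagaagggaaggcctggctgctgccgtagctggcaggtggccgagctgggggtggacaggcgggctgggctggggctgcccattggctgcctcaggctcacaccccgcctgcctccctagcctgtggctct

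A gene was counted if any of its windows held the motif. An E-box was found for 2 of the 7 clock genes above (28.6%) and for 8.09% of all 27025 genes, and a D-box for 1 of 7 (14.3%) and for 1.11%. The window of the downstream start of Tef, which is not shown, also held 1 E-box. Both strands were searched, and neither motif can overlap the other. Over all members with a window, 11.5% of the genes above and 10.3% of those below held an E-box, and 0.769% and 2.30% a D-box. A match is a run of letters, and the binding of a factor was not measured.

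Per3, a period gene of the repressor arm, was the clock gene farthest above. Its member farthest out read 5.79, 7.11, 6.00, 5.59 and 6.40 in naïve, 6.91, 6.60, 6.32, 7.41 and 6.82 in saline, 7.68, 7.45, 8.60, 8.71 and 9.08 in IMO-3100 and 9.05, 8.42, 7.92, 7.95 and 8.27 in IMO-8400 skin. No antagonist mouse overlapped a control. Of its other probe-sets, 3 were members too, at distances of 1.35, 1.11 and 0.74, and 2 read the lowest value of the arrays in every group. Dbp, the D-box activator, read 8.97, 10.82, 10.75, 9.02 and 10.43 in naïve, 10.96, 10.70, 10.64, 11.40 and 11.02 in saline, 12.26, 12.17, 12.26, 12.24 and 12.56 in IMO-3100 and 12.45, 12.40, 12.13, 11.93 and 12.14 in IMO-8400 skin. All antagonist mice were above 11.9 and all controls below 11.5. Within the naïve group mice 1 and 4 read about 9.0 and the other 3 more than 10.4, so naïve mice differed among themselves by more than the distance of 1.27. The second Dbp probe-set had a distance of 1.16.

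The other output activators behaved less uniformly. Tef, on the farther of its 2 member probe-sets, averaged 7.15 ± 0.74 in naïve, 6.73 ± 0.39 in saline, 8.29 ± 0.58 in IMO-3100 and 8.65 ± 0.71 in IMO-8400 skin. Hlf read 7.72, 9.37, 9.53, 9.07 and 9.12 in naïve, 5.69, 6.73, 5.57, 7.16 and 7.23 in saline, 9.10, 9.59, 9.89, 9.27 and 10.02 in IMO-3100 and 10.17, 10.09, 9.46, 10.65 and 8.98 in IMO-8400 skin. Hlf was lower in saline than in naïve skin, and the antagonist mice overlapped the naïve mice. Its distance of 0.61 became 0.30 without naïve mouse 1, under the limit of 0.5. The second Hlf probe-set lay above the controls by 0.26.

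In the repressor arm, Nr1d1, which encodes REV-ERB alpha, read 6.98, 9.14, 8.63, 7.15 and 8.11 in naïve, 8.62, 8.64, 8.94, 9.46 and 9.02 in saline, 9.52, 9.86, 9.58, 9.40 and 9.86 in IMO-3100 and 10.69, 10.62, 10.11, 9.99 and 10.18 in IMO-8400 skin. The lowest IMO-3100 mouse, at 9.40, was under the highest saline mouse, at 9.46, and all IMO-8400 mice stood above both. Nr1d2, its homologue, averaged 11.73 ± 0.54 in naïve, 11.95 ± 0.09 in saline, 12.84 ± 0.23 in IMO-3100 and 12.62 ± 0.08 in IMO-8400 skin on the brighter of its 2 member probe-sets. Ciart, a repressor of CLOCK and ARNTL, averaged 6.04 ± 0.66 in naïve, 5.88 ± 0.24 in saline, 6.56 ± 0.90 in IMO-3100 and 6.87 ± 0.95 in IMO-8400 skin, with antagonist SDs larger than its distance of 0.53. Nfil3, the D-box repressor, lay on the other side and read 11.91, 10.61, 10.36, 10.54 and 10.11 in naïve, 10.78, 10.96, 11.31, 10.52 and 10.78 in saline, 9.31, 9.25, 8.71, 8.54 and 8.54 in IMO-3100 and 9.12, 9.31, 9.27, 9.24 and 9.05 in IMO-8400 skin. All antagonist Nfil3 values were below 9.4 and all control values above 10.1, and its distance was 1.51, or 1.21 without naïve mouse 1.

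No other clock gene met the rule. Per1 lay at 0.33 above, Per2, on its brightest probe-set, at 0.09 above and Cry1 at 0.33 below. Arntl, the partner of CLOCK, averaged 10.63 ± 0.38 in naïve, 10.12 ± 0.10 in saline, 9.96 ± 0.12 in IMO-3100 and 10.31 ± 0.12 in IMO-8400 skin. The antagonist means of Clock, Cry2, Npas2, Bhlhe40 and Bhlhe41 did not lie beyond both controls by 0.5 either. In the settings that leave out 1 mouse, between 5 and 7 of the 7 genes above stayed above and Nfil3 always stayed below; without naïve mouse 1 the 6 genes other than Hlf stayed.

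**Figure D4:**
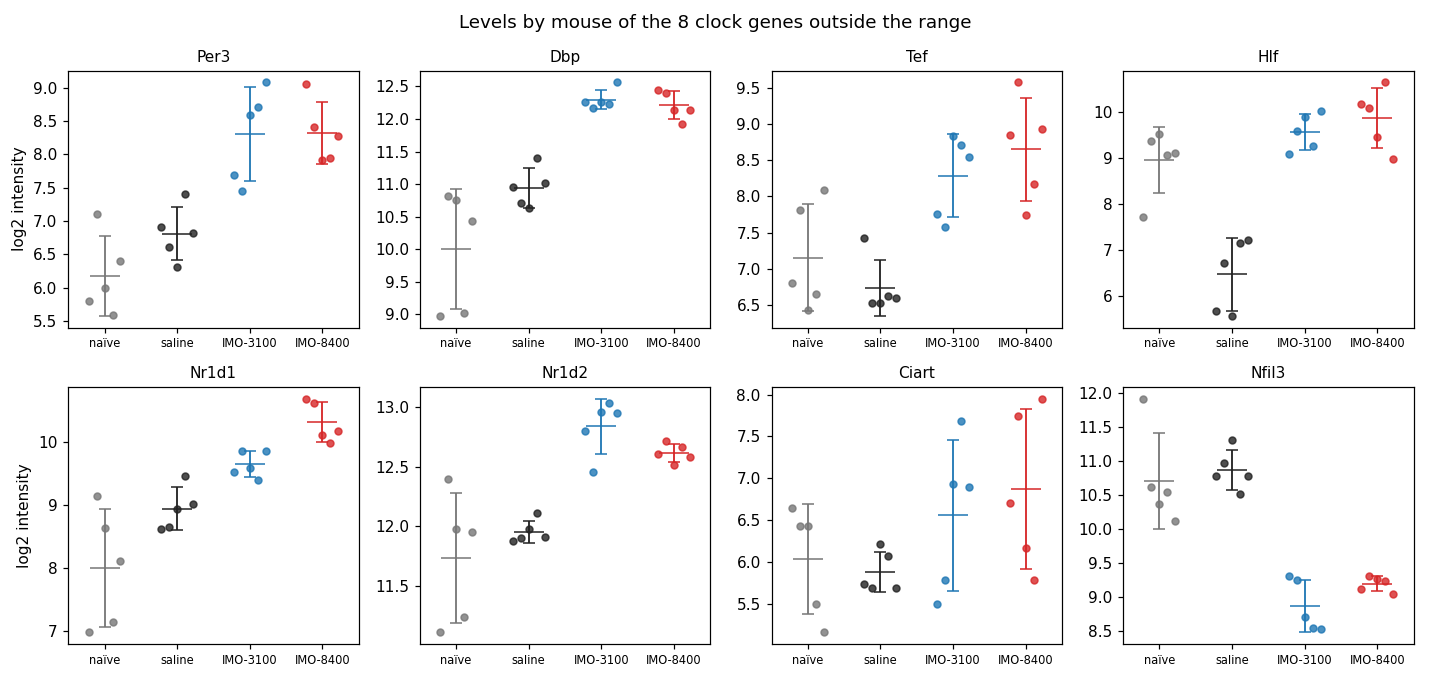
Log2 intensity by mouse for the 8 clock genes outside the interval: Per3, Dbp, Tef, Hlf, Nr1d1, Nr1d2 and Ciart above it and Nfil3 below it. Points are mice (5 per group), bars are the group mean ± SD and each panel has its own axis. Per3, Dbp and Nfil3 show no overlap between control and antagonist mice, whereas Hlf antagonist mice overlap the naïve mice.

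Some genes of the outermost epidermis lay above as well. Flg, filaggrin, which bundles keratin in the granular layer and is the source of the natural moisturising factor, read 11.91, 11.65, 11.52, 11.65 and 11.33 in naïve, 11.47, 11.59, 11.28, 12.03 and 12.10 in saline, 12.50, 13.43, 13.07, 13.32 and 13.58 in IMO-3100 and 13.62, 13.39, 13.26, 12.98 and 13.10 in IMO-8400 skin. The highest control mouse was at 12.10 and the lowest antagonist mouse at 12.50. In the terminal differentiation list 2 of 27 measured genes lay above (7.41%) and none below: Flg and Lce1f, a late cornified envelope protein, which averaged 11.87 ± 0.56 in naïve, 12.28 ± 0.63 in saline, 13.41 ± 0.58 in IMO-3100 and 13.17 ± 0.14 in IMO-8400 skin. Loricrin (Lor) and Krt77 were instead lower in saline than in naïve skin and back near the naïve level in antagonist skin, with Lor means of 14.58 ± 0.44 in naïve, 12.54 ± 0.67 in saline, 14.35 ± 0.35 in IMO-3100 and 14.89 ± 0.27 in IMO-8400 skin, and were no members. Ivl, involucrin, lay above both controls by less than 0.5, at 0.26.

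The following members above were chosen after their values were seen. Lce1h (0.99), Lce1i (0.88) and Lce1d (0.65) belong to the same cluster as Lce1f, and their sequences are so alike that the probe-sets, marked as cross-hybridising by their names, cannot be assigned to 1 gene with certainty. Lipk, an epidermal lipase, averaged 10.85 ± 0.34 in naïve, 11.61 ± 0.11 in saline, 12.49 ± 0.54 in IMO-3100 and 12.54 ± 0.15 in IMO-8400 skin. Krt78, a keratin of the upper epidermis, had a distance of 0.84, or 0.42 without naïve mouse 1. Gsdma2, of the gasdermin family, had 4 member probe-sets at distances between 0.59 and 1.26. The calcium-activated chloride channel regulators Clca1 (1.05), Clca2 (0.71), Clca3a1 (0.57) and Clca3a2 (0.69) all lay above. Without naïve mouse 1, Lce1d (0.42), Clca2 (0.49) and Clca3a1 (0.18) were under the limit, and the others in this paragraph, apart from Krt78, stayed members.

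Immune genes lay above the interval singly rather than as a list. Il22ra2, the secreted IL-22-binding protein that neutralises IL-22, read 6.59, 8.80, 9.86, 9.60 and 9.86 in naïve, 9.92, 9.96, 10.30, 10.59 and 9.84 in saline, 11.34, 11.47, 11.79, 11.57 and 11.31 in IMO-3100 and 11.48, 11.60, 11.23, 11.96 and 10.78 in IMO-8400 skin. All antagonist mice were above 10.7 and all control mice below 10.6. Cd4, the co-receptor of helper T cells, read 5.08, 6.73, 8.10, 5.08 and 9.43 in naïve, 10.13, 9.43, 9.37, 10.41 and 10.79 in saline, 11.69, 11.48, 10.65, 11.19 and 11.06 in IMO-3100 and 11.41, 11.11, 11.25, 10.59 and 11.07 in IMO-8400 skin. The lowest antagonist Cd4 value, 10.59, lay below the highest saline value, 10.79, and the naïve mice ranged from 5.08 to 9.43. Of the 19 measured T cell genes Cd4 was the only member, and the mean of the 3 measured T cell markers was between 9.48 and 10.29 in saline and between 8.62 and 9.48 in the antagonist mice, so that the ranges met. Cd207, langerin, a marker of Langerhans cells, read 8.23, 10.12, 10.65, 10.00 and 10.03 in naïve, 10.51, 10.05, 10.14, 10.78 and 10.28 in saline, 11.31, 11.14, 10.91, 10.91 and 10.82 in IMO-3100 and 10.92, 10.91, 11.36, 11.65 and 10.90 in IMO-8400 skin. Its antagonist and control mice did not overlap, by 10.82 against 10.78, and no other of the 4 Langerhans cell markers was a member. In whole skin, more cells of a type and more RNA per cell cannot be told apart, and the same holds for fewer and less.

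Among chemokines, 2 of 33 were above and none below. Ccl20, the ligand of CCR6 on IL-17-producing cells, averaged 7.18 ± 0.66 in naïve, 7.95 ± 0.07 in saline, 8.84 ± 1.23 in IMO-3100 and 9.06 ± 0.41 in IMO-8400 skin. Ccl28 averaged less than 3 in every group, near the lowest value of the arrays. Traf6, the adaptor downstream of the TLRs and the IL-17 receptor, averaged 6.69 ± 0.33 in naïve, 6.41 ± 0.13 in saline, 7.40 ± 0.58 in IMO-3100 and 7.32 ± 0.18 in IMO-8400 skin and was the only member among 25 genes of the Toll-like receptor list. Of the immediate early genes, 2 of 27 were above: Fosb averaged 6.75 ± 0.61 in naïve, 7.09 ± 1.66 in saline, 8.35 ± 2.39 in IMO-3100 and 9.38 ± 1.81 in IMO-8400 skin and Atf3 10.01 ± 0.36 in naïve, 11.27 ± 0.23 in saline, 12.36 ± 0.63 in IMO-3100 and 11.88 ± 0.70 in IMO-8400 skin. Gsta2, a glutathione transferase, was 1 of 21 genes of the metallothionein and NRF2 list and had a distance of 0.62, or 0.36 without naïve mouse 1. The lymphatic factor Prox1 lay above at 0.50, or 0.26 without that mouse, while Lyve1, a receptor of lymphatic endothelium, lay below at 0.88 with means of 11.44 ± 1.85 in naïve, 9.50 ± 0.17 in saline, 8.60 ± 0.55 in IMO-3100 and 8.62 ± 0.20 in IMO-8400 skin.

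Below the interval, genes that build or cut the extracellular matrix stood beside genes of cell division. Adamts4, a protease of aggrecan and versican, read 9.21, 8.87, 8.16, 9.72 and 8.53 in naïve, 8.38, 9.33, 9.89, 8.86 and 10.05 in saline, 6.39, 5.76, 6.29, 5.70 and 6.83 in IMO-3100 and 6.87, 5.97, 7.82, 6.61 and 7.58 in IMO-8400 skin. The highest antagonist mouse was at 7.82 and the lowest control mouse at 8.16. Of 18 measured genes of the matrix remodelling list 4 lay below (22.2%) and none above: Adamts4, Adamts1 (0.64), Mmp19 (0.57) and Adamts9 (0.55). Control and antagonist mice overlapped for Adamts1, Mmp19 and Adamts9, and Mmp19 was low, with group means from 3.15 to 4.23. The list as a whole averaged 8.56 in naïve, 9.84 in saline, 8.59 in IMO-3100 and 8.75 in IMO-8400 skin, inside the interval. Plod2, which hydroxylates lysines of collagen telopeptides for cross-linking, was chosen after its values were seen as the member farthest below, at 2.21, and read 7.38, 5.68, 5.04, 8.85 and 5.44 in naïve, 6.29, 7.03, 6.07, 5.58 and 5.52 in saline, 3.68, 3.18, 5.16, 3.24 and 3.33 in IMO-3100 and 2.72, 3.12, 4.37, 3.65 and 5.57 in IMO-8400 skin. Its groups overlapped, since the highest antagonist mouse read 5.57 and the lowest naïve mouse 5.04. Spon1, F-spondin, a secreted matrix protein, read 9.42, 8.51, 9.58, 10.01 and 9.84 in naïve, 9.06, 8.94, 8.68, 9.04 and 9.28 in saline, 7.87, 8.03, 7.29, 6.77 and 7.22 in IMO-3100 and 7.70, 7.31, 7.97, 7.37 and 7.78 in IMO-8400 skin. No antagonist mouse reached a control mouse for Spon1, the nearest pair being 8.03 and 8.51. The basement membrane protein Nid2 averaged 9.54 ± 0.50 in naïve, 8.59 ± 0.27 in saline, 7.53 ± 0.36 in IMO-3100 and 7.70 ± 0.39 in IMO-8400 skin. Itga1, the alpha-1 chain of a collagen receptor, averaged 7.58 ± 0.34 in naïve, 8.04 ± 0.28 in saline, 6.17 ± 0.52 in IMO-3100 and 6.66 ± 0.30 in IMO-8400 skin, and neither gene's mice overlapped.

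In the fibroblast and collagen list 3 of 23 genes lay below (13.0%) and none above. Col12a1, a fibril-associated collagen, averaged 8.75 ± 1.05 in naïve, 9.78 ± 0.47 in saline, 7.13 ± 0.66 in IMO-3100 and 7.76 ± 0.50 in IMO-8400 skin. Pdgfra, the PDGF receptor of fibroblasts, had a distance of 0.61 and Col5a2 one of 0.53, with overlap in each. The mean of the 4 fibroblast markers, each on its brightest probe-set, lay between 13.6 and 14.4 in all mice. Of the 4, Pdgfra was a member, on a dimmer probe-set with group means from 5.78 to 7.55. Vcan, versican, which ADAMTS4 cleaves, was named after its values were seen and had 4 member probe-sets below, at distances of 0.57 to 1.39.

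Lrg1, a secreted glycoprotein of inflamed vessels and neutrophils, read 9.19, 7.98, 8.87, 10.67 and 9.25 in naïve, 9.08, 8.74, 9.62, 8.93 and 9.00 in saline, 7.35, 7.57, 7.12, 6.25 and 6.48 in IMO-3100 and 7.58, 7.64, 7.12, 6.84 and 7.58 in IMO-8400 skin. All antagonist mice were below 7.7 and all controls above 7.9. Arg1, the arginase of wound and alternatively activated macrophages, averaged 11.33 ± 0.47 in naïve, 11.55 ± 1.41 in saline, 9.95 ± 1.09 in IMO-3100 and 9.57 ± 1.11 in IMO-8400 skin. Ccr2, the chemokine receptor of inflammatory monocytes, read 3.33, 5.29, 7.61, 7.93 and 8.62 in naïve, 9.82, 9.69, 9.65, 9.18 and 8.74 in saline, 5.90, 6.09, 5.28, 5.21 and 5.66 in IMO-3100 and 5.59, 5.25, 6.25, 4.90 and 6.14 in IMO-8400 skin. All saline mice were above 8.7, every antagonist mouse was at 6.25 or lower, and the naïve mice spanned the antagonist range, with 3.33 and 5.29 in mice 1 and 2 and more than 7.6 in the others. Without naïve mouse 1 the distance of Ccr2 was 1.74 rather than 0.93, and it was 0.41, under the limit, without naïve mouse 5. The paper lists another Ccr2 probe-set, on which each antagonist lowered the level by less than IL-23 had raised it. On that probe-set Ccr2 lay inside the interval. Ccr1, another monocyte and neutrophil receptor chosen after its values were seen, averaged 5.79 ± 2.48 in naïve, 8.93 ± 1.08 in saline, 3.98 ± 0.97 in IMO-3100 and 3.70 ± 0.94 in IMO-8400 skin. The macrophage list had 2 of 28 genes below (7.14%), and none of the 4 macrophage markers was a member; their mean lay between 13.35 and 13.97 in the antagonist mice and between 13.51 and 13.78 in saline. No gene of the neutrophil list was a member.

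Further genes lay below. Hsph1 and Hspa8, both of the heat shock and protein folding list, averaged 10.71 ± 0.43 in naïve, 10.25 ± 0.22 in saline, 9.49 ± 0.17 in IMO-3100 and 9.15 ± 0.43 in IMO-8400 skin for Hsph1, with no overlap, and had a distance of 0.74 for Hspa8, on a probe-set for 1 of several transcripts. Adm, adrenomedullin, averaged 9.28 ± 0.92 in naïve, 10.14 ± 0.11 in saline, 7.89 ± 0.77 in IMO-3100 and 8.20 ± 0.37 in IMO-8400 skin. Angptl4, a lipoprotein lipase inhibitor, averaged 10.94 ± 0.51 in naïve, 10.86 ± 0.68 in saline, 9.08 ± 0.43 in IMO-3100 and 9.92 ± 0.77 in IMO-8400 skin. The retinoid pathway had 2 of 16 genes below (12.5%), the retinaldehyde dehydrogenase Aldh1a3 (0.87) and the retinoic acid-binding protein Crabp1 (0.52). Lrat, which stores retinol as ester and was named after its values were seen, had 2 probe-sets below, at 1.85 and 1.65, and naïve SDs of 2.72 and 2.30. The Wnt antagonist Sfrp1 (0.61) and the activin subunit Inhba (0.59, or 0.40 without naïve mouse 1) were single members of their lists. Prr5l, a component of mTORC2, was among the leading genes at 1.48, as were 1810055G02Rik (0.96), the transcobalamin receptor Cd320 (0.83), the tubulin Tuba8 (0.82) and the mitochondrial ribosomal protein Mrps25 (0.76), none with overlap between control and antagonist mice.

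Genes of the cell cycle were the list with the most members below, and their count rested on naïve mouse 1. Of 36 measured genes, 10 lay below (27.8%) and none above: Aurkb, Cenpf, Aurka, Kif11, Rrm2, Bub1, Cdk1, Kif23, Ccna2 and Top2a. Without naïve mouse 1, 3 of the 10 stayed below on at least 1 probe-set: Aurkb, Aurka and Cenpf. By mouse, the list averaged 10.51, 9.17, 9.24, 9.58 and 9.46 in naïve, 10.12, 10.43, 10.42, 10.16 and 10.24 in saline, 9.20, 9.32, 9.08, 9.24 and 9.25 in IMO-3100 and 9.05, 8.82, 9.55, 9.02 and 9.36 in IMO-8400 skin. Saline mice were all above 10.1, the antagonist mice between 8.82 and 9.55, and the naïve mice other than mouse 1 between 9.17 and 9.58, within or next to the antagonist range. Aurkb, the kinase of the chromosomal passenger complex, read 10.02, 8.33, 8.69, 9.09 and 9.42 in naïve, 8.85, 9.51, 9.27, 9.32 and 9.40 in saline, 7.81, 7.87, 7.82, 8.43 and 8.14 in IMO-3100 and 7.91, 7.78, 8.53, 7.37 and 8.23 in IMO-8400 skin. The naïve mouse at 8.33 lay below the highest antagonist mice, at 8.43 and 8.53, and the Aurkb distance went from 1.09 to 0.87 without naïve mouse 1. Aurka, the spindle pole kinase, averaged 8.67 ± 0.62 in naïve, 9.46 ± 0.53 in saline, 7.45 ± 0.20 in IMO-3100 and 7.79 ± 0.40 in IMO-8400 skin and Cenpf, a kinetochore protein, averaged 7.43 ± 0.74 in naïve, 8.09 ± 0.34 in saline, 6.45 ± 0.26 in IMO-3100 and 6.19 ± 0.97 in IMO-8400 skin. Their distances without naïve mouse 1 were 0.62 and 0.66. A brighter Cenpf probe-set lay below by 0.49, under the limit. On it the naïve mice other than mouse 1 read 7.99 to 8.21 and the antagonist mice 7.31 to 8.45. The second Aurkb probe-set was a member at 0.69, but fell under the limit without naïve mouse 1. There the naïve mice other than mouse 1 read 6.72 to 7.36 and the antagonist mice 6.16 to 6.87. Mki67, the common proliferation marker, lay below both controls by 0.35 and Pcna by 0.12, under the limit. Outside the list, the mitotic kinase gene Pbk (1.11), the spindle gene Spag5 (0.88) and the exonuclease gene Exo1 (1.10) were among the leading genes below, with no overlap, and stood at 0.77, 0.58 and 0.43 without naïve mouse 1.

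Promoters of many cell cycle genes carry CCAAT boxes and a cell cycle homology region (CHR, TTTGAA is the form searched here), elements through which their transcription follows the cell cycle. Windows of Cenpf (chr1:189688037-189688336, minus strand, GRCm38.p6) and Aurka (chr2:172370521-172370820, minus strand) from RefSeq are shown with each match in capitals, on either strand.

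Cenpf: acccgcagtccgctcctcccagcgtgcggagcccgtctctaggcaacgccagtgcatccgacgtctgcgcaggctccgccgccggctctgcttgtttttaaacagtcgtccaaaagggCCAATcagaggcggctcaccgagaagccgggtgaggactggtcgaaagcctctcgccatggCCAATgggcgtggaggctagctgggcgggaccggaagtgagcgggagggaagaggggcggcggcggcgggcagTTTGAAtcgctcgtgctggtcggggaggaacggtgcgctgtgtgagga

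Aurka: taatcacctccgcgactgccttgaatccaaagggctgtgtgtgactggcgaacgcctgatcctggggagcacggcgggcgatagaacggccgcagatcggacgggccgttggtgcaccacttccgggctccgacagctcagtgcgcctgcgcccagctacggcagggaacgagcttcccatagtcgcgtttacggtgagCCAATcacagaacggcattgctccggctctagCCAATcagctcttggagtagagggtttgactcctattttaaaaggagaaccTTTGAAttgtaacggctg

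Of the 8 member genes of the list with a window, 8 held a CCAAT (or ATTGG) and 6 a CHR (TTTGAA or TTCAAA). Over all genes with a window the shares were 41.1% and 20.2%, and 24 and 15 of the 32 list genes with a window held them.

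**Figure D5:**
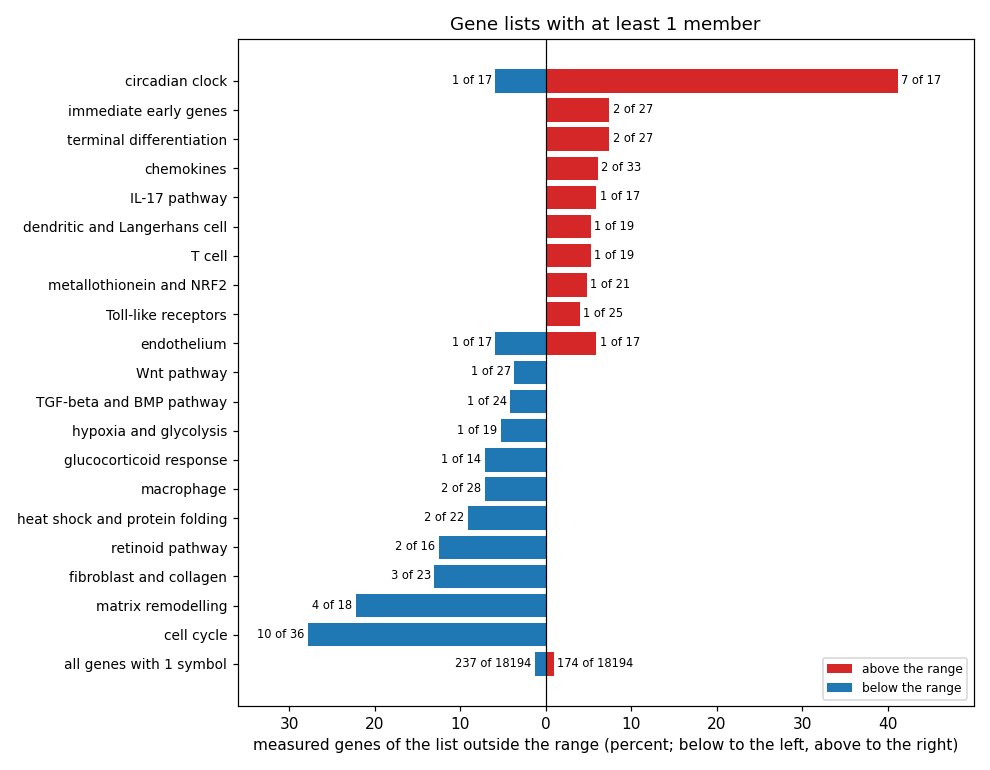
Measured genes of each list that lay above (red, to the right) or below (blue, to the left) the interval, as a percentage, for the 20 lists with at least 1 member and for all genes. The clock list has the highest share above, 7 of 17, and the cell cycle list the highest share below, 10 of 36.

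Many lists had no member. The keratinocyte, hair follicle, melanocyte, sebocyte, skeletal muscle, adipocyte, fatty acid synthesis, cholesterol synthesis, neutrophil, mast cell, B cell, interferon response, cytokine, complement, respiratory chain, ribosome, splicing and chromatin lists held none. For the hair follicle list the naïve mean lay far above the 3 other groups, whose means were close to each other. By mouse, the interferon response list averaged 7.79 to 10.8 in naïve, 10.8 to 12.3 in saline, 11.0 to 11.8 in IMO-3100 and 10.0 to 11.0 in IMO-8400 skin.

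Members with no gene symbol numbered 58 above and 24 below. The farthest of them had a distance of 3.27 and averaged 2.72 ± 0.29 in naïve, 6.66 ± 0.59 in saline, 9.96 ± 1.19 in IMO-3100 and 9.93 ± 0.29 in IMO-8400 skin.

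IMO-3100 and IMO-8400 were also set side by side at their common dose. The rule required both antagonist means to lie on the same side of the controls, so it conditioned on the values compared here, and the differences are given as a description with no test. The antagonist means of 229 of the 268 members above and 273 of the 322 below lay within 0.5 of each other. By the study's cut-offs in limma 3 of the 590 members were called, beside 0.578% of all tested probe-sets, and nothing is read from that share. St18, a zinc finger factor, was one of them and averaged 2.07 ± 0.10 in naïve, 2.85 ± 0.40 in saline, 5.51 ± 0.36 in IMO-3100 and 3.87 ± 0.63 in IMO-8400 skin, a difference of IMO-8400 from IMO-3100 of -1.63 on the log2 scale with an SE of 0.25. Wdr90, a member below, averaged 7.71 ± 0.55 in naïve, 7.72 ± 0.23 in saline, 6.00 ± 0.55 in IMO-3100 and 7.16 ± 0.23 in IMO-8400 skin, a difference of 1.16 with an SE of 0.25. The last of the 3 was an unnamed probe-set among the members above, with a difference of 1.19 and an SE of 0.30. Depending on which mouse was left out, between 1 and 6 members were called. For Scgb1b27 the same difference was 0.77 with an SE of 0.32, and for Mybpc3 it was -1.55 with an SE of 0.49; neither was called.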

How the data were processed

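Full-thickness mouse skin was profiled on 20 Affymetrix mouse4302 arrays, 5 mice in each of 4 groups taken from the treatment labels. The authors made the deposited log2 intensities from the array scans with GCRMA, which corrects background by probe sequence, quantile-normalises the arrays together and summarises the probes of each probe-set; the sources used here give no version. Values as deposited ran from 2.02, the lowest value on every array, to 15.8, and array medians lay between 6.09 and 6.29. GCRMA compresses low signals to that floor, so distances between low genes are imprecise, and joint normalisation removes any change shared by all transcripts. Replicate numbers follow the order of deposition. Precision is limited by the number of arrays.

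Probe-sets were named from the platform annotation: of 45101, 34958 carried a single symbol, 932 more than 1 and 9211 no symbol, and 34754 single-symbol probe-sets matched a RefSeq mouse gene by Entrez identifier, with no symbol changed. Group means and the rule were computed over all probe-sets in Python 3.11.15 and R 4.3.3. The limma package (version 3.58.1) was fitted to 1 model of the 4 groups with lmFit and eBayes, and FDR followed Benjamini and Hochberg over 30960 probe-sets, those above 2 on at least 3 arrays with an SD above 0.1. Since no value is below 2, only the SD criterion acted, and it removed 14141 probe-sets; all 590 members passed. DEGs were called at FDR below 0.05 and FCH over 2. The fit was tested on simulated data. The shifts added there were larger than most distances of the members, so that test does not speak to small distances.

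Named genes were, in each direction, the 15 members with 1 symbol and the largest distance whose 10 antagonist arrays did not overlap the 10 control arrays and whose higher side averaged at least 4; up to 4 members of each of 44 gene lists; the 2 probe-sets nearest the limit on either side; and Tlr7, Tlr8, Tlr9 and Il17a. Other named members are marked as chosen after their values were seen, apart from those called between the antagonists. Further genes that were no members are given for comparison. A list counts a gene if any of its probe-sets is a member, whereas a list or marker mean takes each gene at its brightest probe-set. The members, lists and rules were chosen with earlier results of these data known. Promoter windows, 250 bases before to 50 after a start site, came from RefSeq (GRCm38.p6). Alternatives were another distance, group medians, a floor of 4, scaling to a common 75th percentile, quantile normalisation, filters, models and leaving out mice. The series record speaks of 2 doses of 1 antagonist, whereas the sample labels name 2 antagonists, and the labels were followed.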

Additional observations from a re-analysis of the deposited data

Results flagged for a closer look

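Within groups of 5 mice, 8 of 104 sets of values held 1 mouse far from the other 4 by Dixon's criterion (7.7%). The sets drew on members chosen by the rule, and the same 20 mice recur in them, so this share cannot be set against a chance rate. Naïve mouse 1 accounted for 3 of the 8. It read 7.72 for Hlf, against 9.07 to 9.53 in the other naïve mice. For Nfil3 it read 11.91, against 10.11 to 10.61, and for Cd207 8.234, against 10.0 to 10.65. In IMO-3100 skin, 1 mouse read 12.56 for Dbp, against 12.17 to 12.26 in the rest, and another 5.162 for Plod2, against 3.182 to 3.678. The mean of the hair follicle list was 5.683 in 1 IMO-8400 mouse and 3.118 to 3.321 in the other 4. Near the floor of the arrays, 1 naïve mouse read 2.444 for Scgb1b27, against 2.026 to 2.09, and 1 saline mouse 3.084 for Mybpc3, against 2.782 to 2.861.

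Between the antagonists, 3 members passed FDR below 0.05 and FCH over 2 in limma, a description only, since the rule used both antagonist means. The difference of IMO-8400 from IMO-3100 was -1.635 for St18, 1.163 for Wdr90 and 1.193 for a probe-set with no gene symbol, on the log2 scale.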

How the results depend on the processing

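No paired analysis was possible because the labels give no replicate numbers that tie mice of different groups. The counts of members stayed within 1.5 times of 268 above and 322 below with a floor of 4, a common 75th percentile, quantile normalisation, and without naïve mice 1 and 2 together. GCRMA had already quantile-normalised the arrays, so the percentile and quantile settings could change little. They say little about the choice of normalisation. With a distance of at least 1 they were 44 and 40, and with group medians 206 lay below. Leaving out 1 mouse at a time gave 188 to 310 above and 205 to 414 below; the lowest counts were those without naïve mouse 1. In all 4 comparisons of an antagonist with a control, 26 of all tested probe-sets were higher and 13 lower by both cut-offs, and 126 and 116 by FDR alone. Without naïve mice 1 and 2 together 22 were lower, and leaving out 1 mouse gave 12 to 22 lower, with 21 without naïve mouse 3 and 22 without naïve mouse 5. Members called between the antagonists, a description, numbered 3, or 5 without naïve mice 1 and 2 together, and 1 to 6 when 1 mouse was left out: 1 without IMO-8400 mouse 2 or 3 or IMO-3100 mouse 3 or 5, 5 without naïve mouse 1 and 6 without IMO-3100 mouse 2. The cell cycle list went from 10 genes below to 3 without naïve mouse 1, 5 without naïve mice 1 and 2 and 4 with medians. No result changed direction under any of these settings. The cause of each shift was not tested.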
